A study of Mus musculus with 6 samples.

Results

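Ppbp and 9 other genes of the CXC chemokine system were followed in mouse tracheal epithelium before injury and at 48 h after injury (48 hpi). The set holds 8 further ligand genes, Pf4, Cxcl1, Cxcl2, Cxcl3, Cxcl5, Cxcl15, Cxcl16 and Cxcl17, and the receptor gene Cxcr2. It was chosen by a measured value, the rise of Ppbp at 48 hpi, the largest of all genes in this comparison, together with the neighbors of Ppbp in the genome and other CXC chemokines of airway epithelium. Every probe set that the array annotation assigns to exactly 1 of these symbols was taken, which gave 14 probe sets for the 10 genes, out of 34945 probe sets with 1 symbol. Because the same comparison chose the genes, the differences between the groups are described for them with an error. The calls printed for them are part of this description and are not read as tests.

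The control group is 3 pools of epithelium from male C57Bl/6 mice labelled as normal controls, and the 48 hpi group is 3 pools from adult males of the same strain that had breathed 500 ppm SO2 for 4 h. Each pool combined cells of 4 tracheas. In both groups the epithelium was peeled off after Dispase digestion, trypsinized and depleted of CD45+ leukocytes with magnetic beads. RNA was hybridized to Affymetrix mouse arrays, 1 array per pool, so that the unit of replication is the pool and the small number of arrays limits the precision.

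Chemokines are small secreted proteins that bind G protein-coupled receptors and direct the migration of leukocytes. In the CXC class 1 amino acid separates the first cysteines of the mature protein. Members that carry the sequence glutamate-leucine-arginine (ELR) just before these cysteines bind CXCR2 and attract neutrophils. Ppbp, Cxcl1, Cxcl2, Cxcl3, Cxcl5 and Cxcl15 are known as ELR chemokines, whereas Pf4, Cxcl16 and Cxcl17 are not counted among them. Airway epithelium is a known source of several of these ligands, and their transcription is known to be induced through NF-kappaB by interleukin-1, interleukin-17 and tumor necrosis factor.

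In the RefSeq annotation 7 of the 10 genes lie next to each other on chromosome 5, in the order Cxcl5, Ppbp, Pf4, Cxcl3, Cxcl15, Cxcl1 and Cxcl2, with no other annotated gene between the first and the last. Promoter windows from 250 bases before to 50 bases after the start site were present for 7 of the 10 genes in the RefSeq table of GRCm38.p6 (Ppbp, Pf4, Cxcl1, Cxcl2, Cxcl3, Cxcl15 and Cxcr2). The windows of the genes with the largest rises, Ppbp and Cxcl3, and of those that were lower at 48 hpi, Cxcl1 and Cxcl15, are given here 5′ to 3′ on the plus strand, because neighboring genes of this cluster moved in opposite directions. Capitals mark matches to a kappaB motif, which is GGG, then 3 bases of any kind, then TTCC, on either strand with overlapping matches joined, and matches to TATAAA on either strand.
Ppbp (chr5:90768268-90768567): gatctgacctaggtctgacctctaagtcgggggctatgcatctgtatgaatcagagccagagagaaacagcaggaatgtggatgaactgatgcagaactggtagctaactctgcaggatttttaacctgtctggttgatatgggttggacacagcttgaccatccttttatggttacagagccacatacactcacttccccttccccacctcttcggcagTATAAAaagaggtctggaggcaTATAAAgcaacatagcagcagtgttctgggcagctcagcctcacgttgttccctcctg
Cxcl3 (chr5:90785851-90786150): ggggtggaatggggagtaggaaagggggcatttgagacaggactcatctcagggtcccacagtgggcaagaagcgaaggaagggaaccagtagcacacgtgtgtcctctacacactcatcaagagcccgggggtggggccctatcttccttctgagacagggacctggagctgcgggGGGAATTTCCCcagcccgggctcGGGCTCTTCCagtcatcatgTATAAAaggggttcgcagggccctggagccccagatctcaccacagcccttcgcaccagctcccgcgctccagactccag
Cxcl1 (chr5:90890995-90891294): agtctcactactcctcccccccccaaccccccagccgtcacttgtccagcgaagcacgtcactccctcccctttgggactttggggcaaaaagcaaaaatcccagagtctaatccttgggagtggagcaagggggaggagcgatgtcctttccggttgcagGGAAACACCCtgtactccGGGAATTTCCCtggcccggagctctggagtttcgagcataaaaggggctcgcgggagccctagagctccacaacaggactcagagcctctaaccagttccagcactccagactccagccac
Cxcl15 (chr5:90794284-90794583): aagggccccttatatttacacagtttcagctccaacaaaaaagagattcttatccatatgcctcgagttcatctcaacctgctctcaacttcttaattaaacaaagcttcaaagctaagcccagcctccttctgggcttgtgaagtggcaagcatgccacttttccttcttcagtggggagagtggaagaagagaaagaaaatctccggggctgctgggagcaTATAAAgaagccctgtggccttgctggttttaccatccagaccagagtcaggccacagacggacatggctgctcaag

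The windows of Cxcl1, Cxcl2 and Cxcl3 each held the 11 bases GGGAATTTCCC, in which the kappaB motif matches on both strands. This stretch began at -71 in Cxcl1, at -97 in Cxcl2 and at -73 in Cxcl3, counted from the start site. Each of the 3 windows held 1 further kappaB match, GGAAACACCC in Cxcl1, GGGCTTTTCC in Cxcl2 and GGGCTCTTCC in Cxcl3. No kappaB match was found in the windows of Ppbp, Pf4, Cxcl15 and Cxcr2, which says only that these letters are not in these 300 bases. Among all 32851 windows of this length in the table, 5.56% held the kappaB motif. TATAAA was found at -30 and -8 in Ppbp, at -30 in Cxcl3 and at -27 in Cxcl15, and in 13.6% of all windows. The AP-1 motif TGANTCA, searched on both strands, was found once, in Ppbp at -204, and in 7.81% of all windows. In pairwise global alignments Cxcl2 and Cxcl3 shared 189 of 300 bases and Cxcl1 and Cxcl2 174, whereas no pair with Ppbp shared more than 140. The window of Cxcr2, which lies on chromosome 1, shared 144 bases with Cxcl2 and 132 with Ppbp. No likeness of the Ppbp window to the others is therefore read from its values. The motif matches describe letters and not binding.

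**Figure D1:**
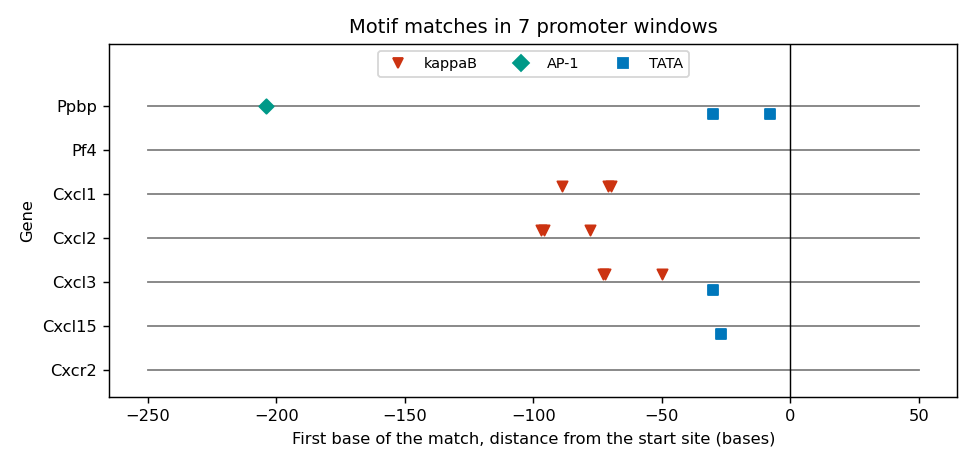
Position of motif matches (symbols, first base of each match) in the promoter windows of 7 genes, with the distance from the start site in bases on the x axis and 1 line per gene. The kappaB matches lie in Cxcl1, Cxcl2 and Cxcl3, and the TATA matches in Ppbp, Cxcl3 and Cxcl15. Ppbp and Cxcl15 hold no kappaB match.

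Values are RMA expression on the log2 scale, and each difference is 48 hpi minus control on that scale with its standard error (SE) from limma, fitted over all 45037 probe sets. A call means an adjusted p below 0.05 over all of them. As background served the level below which 95% of 81 chemosensory receptor probe sets lay by their mean in a group (olfactory, vomeronasal and trace amine), 4.93 in control and 4.81 at 48 hpi. Of the 14 probe sets, 12 exceeded the background in 1 or both groups, and those of Pf4 and Cxcr2 were below it in both. The call was higher for 2 and lower for 6 probe sets of the set, beside 28.4% of all probe sets called in either direction, 14.5% higher and 13.9% lower. In 9 of the 14 the control and 48 hpi values did not overlap, beside 43.4% of all probe sets. Since the choice of the genes rests on this comparison, nothing is read from these counts. With 3 pools in each group the smallest two-sided p of an exact permutation test is 0.1. In bulk samples a smaller share of cells of a type and less RNA per cell cannot be told apart.

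The defining markers of airway epithelium were present in both groups. All 9 epithelial markers were above background, with means of 11.04 in control and 11.32 at 48 hpi for Epcam, an adhesion molecule of epithelia, 11.81 and 11.63 for Cdh1, which encodes E-cadherin, 11.21 and 11.90 for the basal cell keratin gene Krt5, and 8.73 and 8.39 for the basal cell factor Trp63. The club cell secretoglobin gene Scgb1a1 had means of 14.49 and 13.98, and Foxj1, the regulator of ciliated cells, 7.84 and 7.80. Ptprc, which encodes CD45, was below background in both groups, with 3.04 in control and 2.83 at 48 hpi. However, 3 of the 6 listed macrophage and leukocyte markers were above background in both groups. These were Cd14 (10.82 in control and 10.49 at 48 hpi), Csf1r (6.65 and 5.81) and Cd68 (6.38 and 6.48). Over all genes, taken by the brightest probe set of each, 18.4% were higher and 16.1% lower. Of the 9 epithelial markers 4 were higher and 0 lower, with differences of 3.18 for Krt14, 0.69 for Krt5, 0.43 for Krt8 and 0.28 for Epcam. The dimmer probe set of Epcam (0.004) and the dimmest of Krt14 (0.80) were not called. The dimmest probe set of Trp63, with both means below background, was called lower (−0.45). Epcam lost its call without any 1 of the control pools or without 48 hpi replicate 1 or 2. Of 4 ciliated cell markers 3 were lower, with −1.12 for Hydin, −0.79 for Tekt1 and −0.75 for Dnah5, which was below background in both groups. The call of Tekt1 was lost under 9 of 14 alternatives, among these leaving out control replicate 2 or 3 or any 1 of the 48 hpi pools. With equal hybridization controls 1 ciliated marker was lower, under a shift that raised the median difference of all probe sets to 0.33. Of 6 macrophage and leukocyte markers Csf1r was lower (−0.84), with 2 dimmer probe sets not called, of 6 endothelial markers Selp (−0.40), and 0 of either list were higher. Selp was below background in both groups, its other 2 probe sets were not called, and its call was lost under 7 of 13 alternatives, among these leaving out control replicate 1 or 3 or 48 hpi replicate 1 or 2. Within the groups the arrays correlated across probe sets with r from 0.9899 to 0.996, and 48 hpi replicate 3 was the least like the others of its group.

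**Figure D2:**
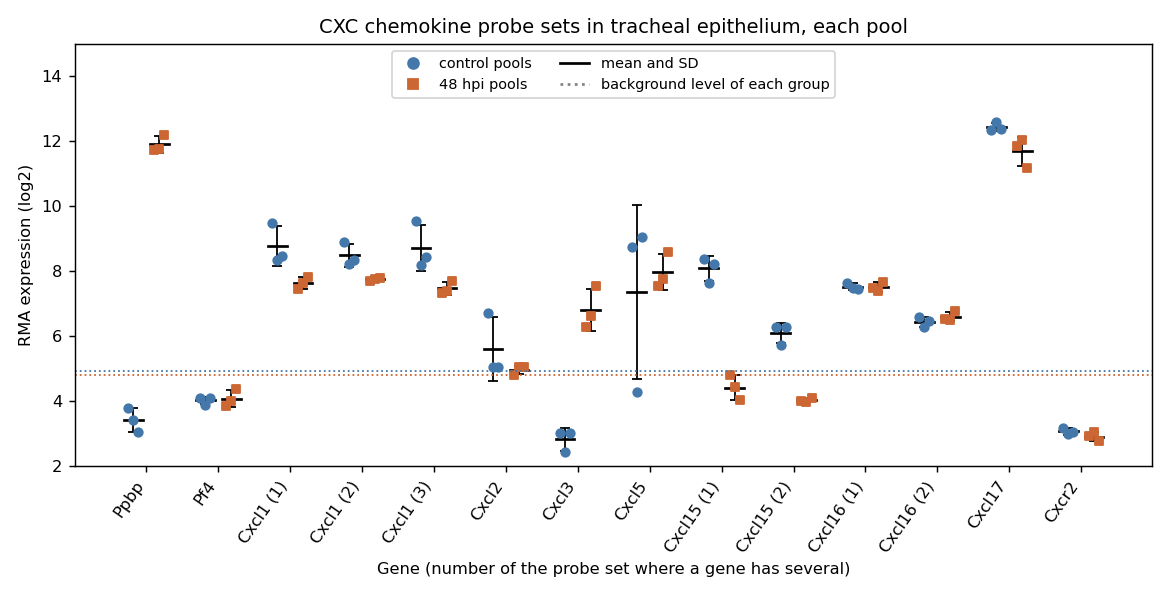
RMA expression (log2) in each control pool (circles) and 48 hpi pool (squares) for the 14 CXC probe sets, with mean and SD as bars and dotted lines for the background level of each group. Ppbp and Cxcl3 go from below background to above it, both probe sets of Cxcl15 go the other way, and 1 control pool of Cxcl5 lies far below the rest.

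Ppbp encodes pro-platelet basic protein, whose processed forms include the neutrophil attractant NAP-2, and is known as a product of megakaryocytes and platelets. Its probe set (1418480_at) had values of 3.78, 3.40 and 3.05 in the control pools and of 11.75, 11.77 and 12.20 at 48 hpi. Every control pool was thus below background and every 48 hpi pool far above it. The difference was 8.49 (SE 0.20, 95% confidence interval 8.04 to 8.95), which corresponds to 360-fold. Taken from the background level, at which the control values cannot be resolved, the level was at least 125-fold higher at 48 hpi. The 48 hpi pools differed among each other by 0.45, so the level was similar in the 3 pools.

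Pf4, the next gene of the cluster, encodes platelet factor 4, a chemokine stored with the products of Ppbp in platelet granules. Its values were 4.09, 3.88 and 4.08 in control and 3.84, 3.98 and 4.36 at 48 hpi. All 6 values were below background and the groups overlapped, with a difference of 0.05 (SE 0.14, 95% confidence interval −0.28 to 0.37). The gene 1 position from Ppbp, made by the same cells in blood, was therefore not detected above background in either group.

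Of 16 listed markers of platelets and megakaryocytes 14 were measured, and 0 were higher and 1 was lower at 48 hpi by limma over all probe sets, with 2 at an unadjusted p below 0.05. Over all genes, taken by the brightest probe set of each, 18.4% were higher and 16.1% lower. The summed level of the 14 markers on the log2 scale ranged from 62.14 to 64.94 in the control pools and from 60.70 to 61.35 at 48 hpi. Their median difference was −0.10, beside −0.02 over all genes. Of the 14, 5 were above background in a group. Itga2b, which encodes the alpha chain of the fibrinogen receptor of platelets, had means of 6.62 and 6.61 in control and at 48 hpi. The platelet glycoprotein genes Gp9 and Gp1bb had means of 5.60 and 5.55, and of 5.26 and 5.19. Treml1, a receptor of platelet granules, had means of 5.02 and 4.70. Alox12, a lipoxygenase gene also known from epithelia, fell by 0.96 (SE 0.19, adjusted p = 0.0068 from limma), and a dimmer probe set of it was not called. At 48 hpi, Ppbp was thus high in pools in which Pf4 and 10 of the 14 platelet markers were below background. In situ localization of Ppbp was not analysed here.

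**Figure D3:**
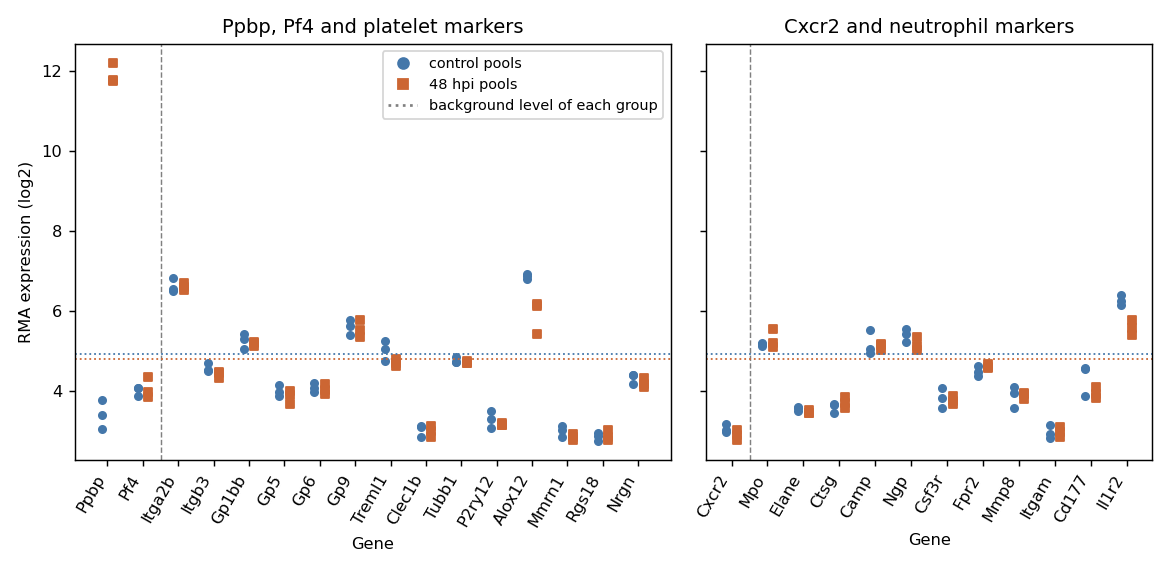
RMA expression (log2) in each control pool (circles) and 48 hpi pool (squares) of Ppbp and Pf4 beside 14 platelet and megakaryocyte markers (left), and of Cxcr2 beside 11 neutrophil markers (right), with dotted lines for the background level of each group. Ppbp alone among the genes shown reaches 11.75 or more at 48 hpi, whereas the values of Pf4 and Cxcr2 lie below background in both groups.

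Cxcl3, a ligand of CXCR2 from the Gro subfamily, was the other gene of the set that was higher at 48 hpi. Its probe set (1438148_at) had values of 3.01, 2.41 and 3.02 in control and of 6.27, 6.61 and 7.54 at 48 hpi. The groups did not overlap, all control pools were below background and all 48 hpi pools above it. The difference was 3.99 (SE 0.31, 95% confidence interval 3.27 to 4.71), and from the background level the rise was at least 3.66-fold. Its largest 48 hpi value was in replicate 3, as for Ppbp.

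Cxcl1, another Gro chemokine and ligand of CXCR2, had a clear signal in control epithelium and moved the other way on all 3 of its probe sets. The brightest (1457644_s_at) had values of 9.47, 8.35 and 8.48 in control and of 7.43, 7.63 and 7.82 at 48 hpi. A second (1419209_at) had 9.53, 8.20 and 8.42 in control and 7.32, 7.38 and 7.69 at 48 hpi. For each of the 3 the groups did not overlap and control replicate 1 had the highest value. The differences were −1.14 (SE 0.27), −1.25 (SE 0.31) and, for the x probe set 1441855_x_at, −0.74 (SE 0.17). Probe sets marked s or x can share probes with related transcripts, but here they went in the same direction as the plain one. The calls of the s probe set and of 1419209_at were lost without 48 hpi replicate 1, with differences of −1.04 and −1.18, and that of 1419209_at also without 48 hpi replicate 2, with −1.21.

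Cxcl2, the third Gro gene and the one farthest from Ppbp in the cluster, was near background. Its values were 6.72, 5.03 and 5.03 in control and 4.797, 5.03 and 5.03 at 48 hpi. Control replicate 1 stood above all other pools, and the remaining 5 values lay between 4.797 and 5.03. The difference of −0.64 (SE 0.41, 95% confidence interval −1.59 to 0.30) was not called, and without that pool it was −0.08. Cxcl1, Cxcl2 and Cxcl3, whose promoter windows share the stretch GGGAATTTCCC, thus had a fall, no call and a rise in the same pools.

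Cxcl5 encodes an ELR chemokine known as LIX and lies next to Ppbp on its other side. Its probe set (1419728_at) had values of 8.75, 4.28 and 9.05 in control and of 7.55, 7.75 and 8.60 at 48 hpi. Control replicate 2 was below background, whereas the other 5 pools were between 7.55 and 9.05. The difference over all pools was 0.61 (SE 1.12, 95% confidence interval −1.96 to 3.18) and was not called. Without control replicate 2 its sign changed, to −0.93 (SE 0.30, 95% confidence interval −1.64 to −0.22), and it was not called either. The 48 hpi pools were all below the other 2 control pools, so the direction of Cxcl5 depends on that single pool.

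Cxcl15, also called lungkine, is a CXC chemokine known from lung epithelium. Its brighter probe set (1421404_at) had values of 8.37, 7.64 and 8.23 in control and of 4.79, 4.42 and 4.02 at 48 hpi. The dimmer one (1456428_at) had 6.26, 5.72 and 6.26 in control and 3.99, 3.97 and 4.09 at 48 hpi. On both, all control pools were above background and all 48 hpi pools below it. The differences were −3.67 (SE 0.24) and −2.06 (SE 0.15), and measured down to the background level the control means were at least 9.69-fold and 2.42-fold higher. On both probe sets control replicate 2 was the lowest of the controls.

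**Figure D4:**
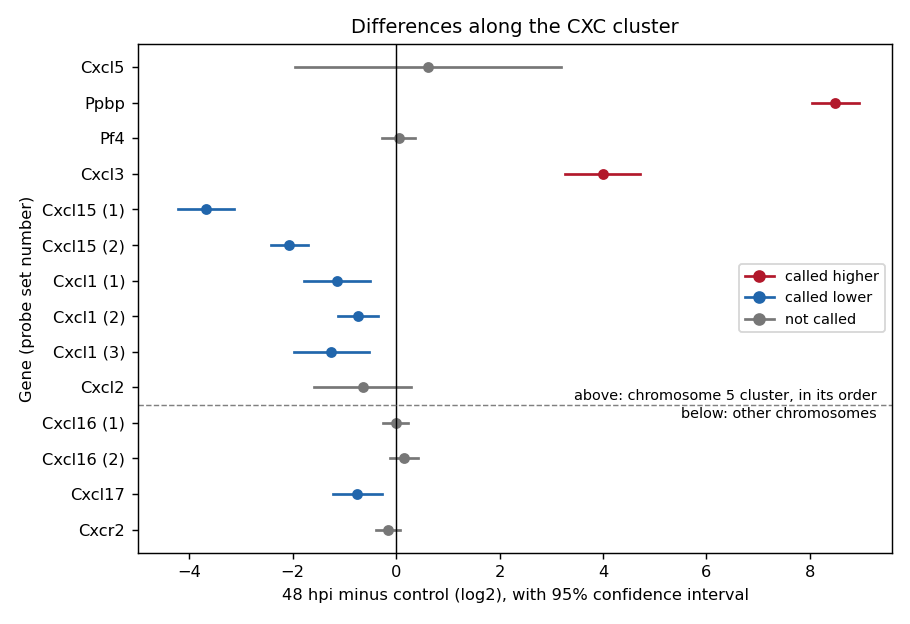
Difference between 48 hpi and control (log2, points) with its 95% confidence interval from limma (lines) for each probe set, with the chromosome 5 genes in their genomic order above the dashed line and the genes of other chromosomes below it. Ppbp, at 8.49, lies between Cxcl5, with an interval from −1.96 to 3.18, and Pf4, at 0.05, and Cxcl3, at 3.99, is followed by Cxcl15, at −3.67 and −2.06.

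Cxcl16, outside the chromosome 5 cluster, encodes a membrane-bound chemokine that is shed by proteases and binds CXCR6. Its brighter probe set had values of 7.64, 7.48 and 7.43 in control and of 7.48, 7.39 and 7.66 at 48 hpi, and the dimmer one 6.59, 6.28 and 6.46, and 6.52, 6.504 and 6.76. The groups overlapped on both, and the differences of −0.01 (95% confidence interval −0.26 to 0.24) and 0.15 (−0.11 to 0.42) were not called. The intervals leave room for a change of up to 0.42 on the log2 scale. Adam17 and Adam10, which encode the sheddases of this ligand, rose by 0.61 (SE 0.12, adjusted p = 0.00571 from limma) and 0.36 (SE 0.10, adjusted p = 0.0275 from limma), although 2 dimmer probe sets of each were not called and the call of Adam10 was lost without control replicate 1 or 2 or 48 hpi replicate 2 or 3. Cxcr6 was below background, with means of 2.90 and 2.97.

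Cxcl17, also outside the cluster, is a chemokine-like product of mucosal surfaces. It had values of 12.36, 12.60 and 12.38 in control and of 11.86, 12.04 and 11.19 at 48 hpi. The groups did not overlap, and 48 hpi replicate 3 was the lowest. The difference was −0.75 (SE 0.21, 95% confidence interval −1.23 to −0.28). Its call was lost without any 1 of the control pools, with differences from −0.80 to −0.68. Of 8 secretory cell markers 6 were lower and 0 were higher, from −2.46 for Pigr and −2.05 for Bpifb1 to −1.49 for Muc5b, −1.30 for Scgb3a1, −0.75 for Scgb3a2 and −0.55 for Cyp2f2, with a median difference of −1.02 and a summed level from 108.93 to 109.65 in control and from 93.66 to 103.17 at 48 hpi, and 48 hpi replicate 3 was again the lowest pool. Over all genes 16.1% were lower and 18.4% higher. Without control replicate 1, 2 or 3 the number of lower secretory markers was 4, 3 and 3, and with an unpaired t-test it was 0. The part of these cells in the fall of Cxcl17 and Cxcl15 was not tested.

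Cxcr2, on chromosome 1, encodes the receptor for the ELR chemokines and is known from neutrophils. Its values were 3.17, 2.97 and 3.03 in control and 2.90, 3.03 and 2.77 at 48 hpi. All were below background and overlapped, with a difference of −0.16 (SE 0.10). Of 16 listed neutrophil markers 11 were measured. By limma 0 of them were higher and 1 was lower, beside 18.4% and 16.1% of all genes, and 1 had an unadjusted p below 0.05. The summed level of these markers was 47.91 to 49.25 in control and 47.16 to 47.80 at 48 hpi. Mpo, Camp and Ngp, which encode granule proteins, had means from 5.16 to 5.41 in control and from 5.12 to 5.29 at 48 hpi, just above background. The one that fell, Il1r2 (−0.69, SE 0.12, adjusted p = 0.00417 from limma), encodes a decoy receptor for interleukin-1 that other cells make too. Elane, Ctsg, Csf3r, Itgam, Mmp8 and Fpr2 were below background in both groups, so that the receptor of Ppbp and Cxcl3 and most markers of the cells they attract were not detected in pools that had been depleted of CD45+ cells.

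The control pools differed among themselves for several of these genes, with an SD of 2.67 for Cxcl5, of 0.97 for Cxcl2 and from 0.36 to 0.71 for the probe sets of Cxcl1. For Cxcl5, control replicate 2 lay 4.47 below the lower of the other controls, the largest such gap of all 45037 probe sets. The next was that of Lcn2, which encodes lipocalin-2, an antibacterial protein, with a gap of 1.86 (7.13, 4.64 and 6.51 in control). In both, control replicate 2 was below background, so the size of the gap is not resolved. For Cxcl2, control replicate 1 lay 1.69 above the higher of the other controls, again the largest gap of its kind. It was followed by Ereg, a ligand of the EGF receptor (1.60), a probe set without a symbol (1.57), Cxcl10, an interferon-induced chemokine (1.39), and Fosl1, an AP-1 gene (1.33), and Cxcl1 on probe set 1419209_at was 13th (1.11). For Ereg and Cxcl10 the other 2 controls were below background. Both measures and the genes named from them were chosen after the values were seen. They describe single pools and have no test.

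**Figure D5:**
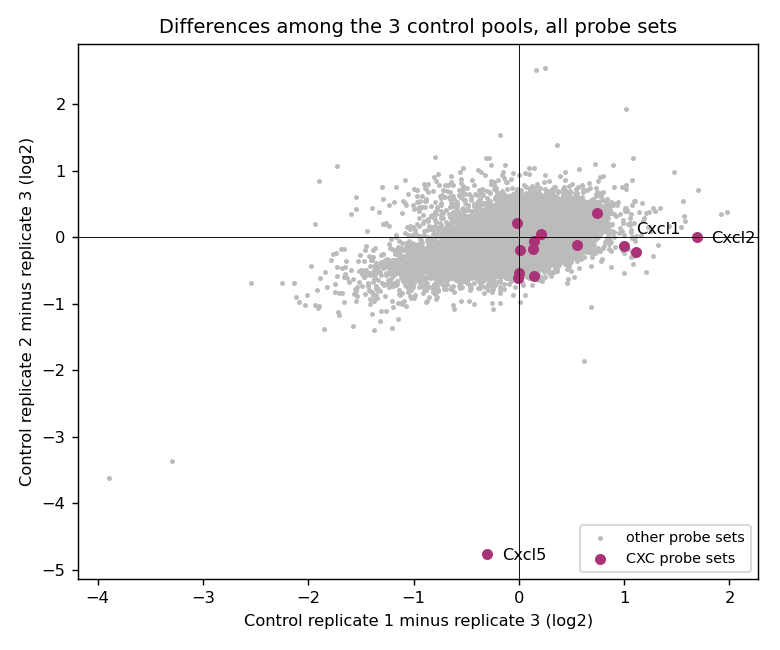
Difference of control replicate 1 from replicate 3 (x axis, log2) and of control replicate 2 from replicate 3 (y axis, log2), for all probe sets (gray) and the 14 CXC probe sets (purple). Cxcl5 lies apart on the y axis, with replicate 2 at 4.77 below replicate 3, and Cxcl2 and a Cxcl1 probe set lie at 1.69 and 1.11 on the x axis.

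Of the 6 other CXC ligands measured 0 were higher and 1 was lower by limma, beside 18.4% and 16.1% of all genes, 2 had an unadjusted p below 0.05, and the median difference was −0.04. The other of these 2 was Cxcl9, an interferon-induced chemokine, with a difference of 0.42 (SE 0.16, adjusted p = 0.0965 from limma), groups that did not overlap and both means below background. Cxcl13, a B cell attractant, fell by 0.75 (SE 0.21, adjusted p = 0.0322 from limma) on its brighter probe set and by 1.21 on the other. Under 2 alternatives, equal hybridization controls and leaving out control replicate 1, 1 ligand was called higher, and the call of Cxcl13 was lost under 6. The first of these raised the median difference of all probe sets to 0.33. Cxcl10 had values of 6.23, 4.83 and 4.69 in control and 5.14, 5.18 and 5.28 at 48 hpi, and Cxcl11, Cxcl12 and Cxcl14 were below background in both groups.

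Of 20 measured CC, CX3C and XC ligand genes 4 were lower and 0 were higher by limma, beside 16.1% and 18.4% of all genes. Of the 20, 5 had an unadjusted p below 0.05, and the median difference was −0.07. Ccl20, a ligand of CCR6 made by epithelia, had values of 7.73, 7.66 and 7.41 in control and 6.33, 5.69 and 5.99 at 48 hpi, a fall of 1.60 (SE 0.17, adjusted p = 0.000406 from limma). Cx3cl1, the membrane-bound chemokine fractalkine, had a difference of −1.39 (SE 0.16), Ccl28, a mucosal chemokine, of −1.44 (SE 0.22) and Ccl27a, a ligand of CCR10, of −1.11 (SE 0.22), to below background. For Ccl28 and Cx3cl1, 2 dimmer probe sets each were not called. With equal hybridization controls, and also without control replicate 2, 4 of these genes were lower and 1 was higher. Equal hybridization controls raised the median difference of all probe sets to 0.33, so that count is not comparable with the shares above.

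Of 8 measured other receptors 1 was higher and 1 was lower, beside 18.4% and 16.1% of all genes. Ackr3, an atypical receptor that removes Cxcl12 and Cxcl11, had values of 9.31, 9.24 and 9.10 in control and of 7.66, 7.95 and 6.99 at 48 hpi, and fell by 1.68 (SE 0.22, adjusted p = 0.00108 from limma). Cxcr4, the signaling receptor for Cxcl12, rose by 0.58 (SE 0.14, adjusted p = 0.0152 from limma), with both group means below background. It was no longer called with an unpaired t-test, at an adjusted p below 0.01, without control replicate 3 or without 48 hpi replicate 2.

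Of 18 measured genes known to be induced together with the ELR chemokines 1 was higher and 5 were lower, with a median difference of −0.21, beside 18.4% higher and 16.1% lower over all genes. Csf2, which encodes GM-CSF, rose from below background with a difference of 1.28 (SE 0.15, adjusted p = 0.000699 from limma). Nfkbia and Nfkbiz, which encode regulatory proteins of the NF-kappaB system, were lower on all of their probe sets, with differences of −1.03 (SE 0.12) and −0.76 (SE 0.14) on the brightest. The transcription factor genes Cebpb and Cebpd had differences of −1.09 (SE 0.12) and −1.16 (SE 0.27), and Icam1, a leukocyte adhesion molecule, of −0.53 (SE 0.15). The call of Icam1 was lost without control replicate 1 or 2 or 48 hpi replicate 2 or 3, and that of Cebpd without 48 hpi replicate 2. With equal hybridization controls 4 were higher and 3 lower, and without 48 hpi replicate 2 the counts were 2 and 3. The shift to equal hybridization controls raised the median difference of all probe sets to 0.33. Its counts are therefore not comparable with the shares above.

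Of 15 measured receptors and adaptors for interleukin-1, interleukin-17 and tumor necrosis factor 1 was higher and 4 were lower. Over all genes 18.4% were higher and 16.1% lower. Il1r1 and its partner Il1rap had differences of −0.51 (SE 0.14) and −0.70 (SE 0.10), Il17re, the receptor chain for interleukin-17C, of −0.48 (SE 0.09), and Ikbkg, a part of the kinase complex that activates NF-kappaB, of −1.23 (SE 0.10). The call of Il1r1 was lost without control replicate 1 or 3 or 48 hpi replicate 1 or 3. Tradd, an adaptor of the tumor necrosis factor receptor, rose by 0.55 (SE 0.12). Apart from Tradd, at least 1 dimmer probe set of each was not called, and 1 of the 3 of Tradd was not called either. With equal hybridization controls 1 was lower and 1 was higher, but this shift raised the median difference of all probe sets to 0.33.

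Of 12 genes for proteases that cut chemokines and for factors that bind their mRNAs, 4 were higher and 3 were lower. Over all genes 18.4% were higher and 16.1% lower. Elavl1, which stabilizes AU-rich mRNAs, rose by 0.79 (SE 0.09), although another of its 6 probe sets was lower. Khsrp, which promotes the decay of such mRNAs, rose by 0.49 (SE 0.10), on all 3 of its probe sets. The mRNA-binding factor genes Zfp36 and Zfp36l1 went the other way. Zfp36 fell by 0.98 (SE 0.22) and Zfp36l1 by 0.63 (SE 0.13), the latter on both of its probe sets. The call of each was lost under 2 of 14 alternatives. Anpep, an aminopeptidase of the cell surface, fell by 1.34 (SE 0.25).

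Over the 6 arrays, the probe sets most like that of Ppbp by Pearson's r were those of Cenpu (0.9997), H2az1 (0.9993), Ftsj1 (0.9993), Bub1 (0.9993) and Syce2 (0.9993). Among the other genes of the set r was 0.98 for Cxcl3, 0.19 for Cxcl5 and 0.17 for Pf4, and −0.99 and −0.98 for the probe sets of Cxcl15. Cenpu and Bub1 encode kinetochore proteins, H2az1 a histone variant, Ftsj1 a tRNA methyltransferase and Syce2 a protein of the synaptonemal complex. With 6 arrays in 2 groups, r mainly records how cleanly the groups separate, and 545 probe sets exceeded 0.99.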

How the data were processed

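Epithelial RNA of 3 control and 3 48 hpi pools was measured on Affymetrix arrays. The deposited values are RMA expression on the log2 scale, which the authors made in Partek 6.5 after amplification with MessageAmp Premier; the submitters' processing notes also name Affymetrix Expression Console 1.1. The values come without detection calls. Of 45101 probe sets, 64 control probe sets were left out. Of 34945 tested probe sets with 1 symbol, 34741 matched RefSeq by Entrez ID and 0 changed symbol. Control and 48 hpi were compared over 45037 probe sets by lmFit and eBayes of limma 3.58.1 (R 4.3.3), without a block and with the Benjamini-Hochberg method, and the fit was tested on simulated data. Each gene of the 13 lists was represented by its brightest probe set on average. The genes named are the set itself, from each list all called genes or, above 6, the 4 with the smallest p, platelet and neutrophil markers above background, markers of the tissue, and the 5 genes most like Ppbp. Adam10, Zfp36, Zfp36l1, Cxcr6, Ptprc, Cd14, Cd68, the uncalled CXC ligands, the neutrophil markers below background and the genes named for the control pools are outside this rule. They were added after their values were seen. The genes and lists were chosen with earlier results of these data known. Alternatives were a mean-variance trend, an unpaired t-test on each probe set, repeated quantile normalization and a shift to equal hybridization controls. Further ones were 1 probe set per gene, removal of dim probe sets, a stricter threshold, the replicate number as a block and leaving out each array. The paper names the unpaired t-test as its general test and analysis of variance for the arrays. The labels call the arrays biological replicates, and p-values measure the spread between these pools. Protein sequences were not used here. Plots were drawn with matplotlib 3.10.9.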

Additional observations from a re-analysis of the deposited data

How the results depend on the processing

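Ppbp, Cxcl3 and both probe sets of Cxcl15 kept their call and direction under every alternative run. Differences were 8.31 to 8.85 for Ppbp, 3.63 to 4.35 for Cxcl3 and −3.89 to −3.32 for the brighter Cxcl15 probe set. The genes were chosen from this comparison and the alternatives refit the same arrays, so these kept calls are a description and no support. The call of Cxcl17 was lost under 6 alternatives, and those of the 3 Cxcl1 probe sets under 3, 3 and 4. The shift to equal hybridization controls moved the median difference of all probe sets from −0.03 to 0.33. With it 8943 probe sets were higher and 1500 lower, in place of 6512 and 6267, and 17 list genes were higher and 17 lower, in place of 11 and 31. Cxcl17 and the x probe set of Cxcl1 were then not called (−0.39 and −0.38), and Cxcl5 was called higher (0.97, SE 0.23). The SD of its controls was 2.67 and its SE in the main fit 1.12. Under this shift the SE thus came almost wholly from the variance over all probe sets. Calls gained or lost with equal hybridization controls therefore do not weigh the spread of each probe set. With the unpaired t-test 2948 probe sets, 2 of the CXC probe sets and 13 list genes were lower. At an adjusted p below 0.01 the same counts were 2971, 2 and 20. With 1 probe set per gene 3527 were higher and 3191 lower, 3 of them of the CXC set, because fewer were tested. Leaving out 1 array gave 4051 (without control replicate 2) to 5860 lower and 5210 to 5904 higher probe sets, 4 to 6 lower and 2 higher CXC probe sets, and 25 to 29 lower and 9 to 11 higher list genes.

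With the replicate number as a block (replicate block) 6533 probe sets were higher and 7019 lower, with 2 and 6 of the CXC set and 11 and 34 list genes. The deviations of same-numbered pools correlated with r = 0.20, 0.08 and 0.19, so the numbers were not taken as pairs, although each pool correlated best with its own number. The block changed no call of a CXC probe set.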
